A study of Mus musculus with 2 samples.

Results

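The B cells of a liver cell preparation were examined in 2 single-cell RNA-seq libraries, 1 from control mice and 1 from Maf LSEC-KO mice. A barcode was taken as a B cell when it held at least 1500 unique molecular identifiers (UMIs, each standing for 1 captured RNA molecule) and at least 750 genes, at least 3 UMIs of Cd79a, Cd79b and Ms4a1 together, and at most 1 UMI of the T cell, NK cell and macrophage genes Cd3e, Nkg7, Adgre1 and Clec4f together. This rule found 103 B barcodes among the 10384 barcodes past the depth filter (12755 deposited), 51 of them control and 52 Maf LSEC-KO. Maf LSEC-KO mice carried 2 floxed Maf alleles and the Clec4g-iCre transgene, which directs Cre to liver sinusoidal endothelial cells (LSECs). The controls were littermates without the transgene that carried 1 or 2 floxed Maf alleles, recorded as wild type in the labels, on a C57BL/6 background. Each library was a pool of 3 mice, and the age and sex of these mice were not given separately in the sources used here. Liver cells freed by collagenase were enriched for CD146, an endothelial surface protein encoded by Mcam, so the B cells were those that passed an enrichment meant for LSECs. With 1 library per group there was no test between the groups: each comparison is of these 2 libraries, and the 95% intervals below cover counting error only.

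B cells recognise antigen through a membrane immunoglobulin that signals through Cd79a and Cd79b. Resting B cells carry IgM and IgD heavy chains, encoded by Ighm and Ighd, joined to a kappa or a lambda light chain, and they present antigen on MHC class II. In liver they lie in the blood-filled sinusoids, where LSECs, fenestrated scavenger cells that express the lectin Clec4g and the hyaluronan receptor Stab2, form the wall.

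B cells made up 1.03% of control barcodes past the depth filter (51 of 4961, exact binomial interval 0.766 to 1.35%) and 0.959% of Maf LSEC-KO barcodes (52 of 5423, 0.717 to 1.26%). The intervals overlapped almost wholly. The enrichment step sets this share, so it is a share of the captured cells and not of the liver. No B barcode sequence was shared between the libraries, which held 10 barcodes in common. The control B barcodes held 2763 to 40036 UMIs (median 8669) and the Maf LSEC-KO ones 2806 to 95328 (median 7745).

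Cd79a, Cd79b and Ms4a1 chose the cells, so their presence is a description. Their summed count ran from 3 to 115 (median 22) in control and from 3 to 104 (median 24.5) in Maf LSEC-KO B barcodes. Just inside the threshold, 3 control barcodes and 1 Maf LSEC-KO barcode had exactly 3 marker UMIs, and 2 and 1 of these had an Ighm UMI. Just outside it, no control barcode and 6 Maf LSEC-KO barcodes had exactly 2, of which 1 had an Ighm UMI. The limit on other lineages removed no control barcode and 11 Maf LSEC-KO barcodes, each with 2 or more UMIs of Adgre1 and Clec4f, and 19 of the retained 52 Maf LSEC-KO barcodes against 3 of 51 control ones held 1 such UMI.

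Genes that the rule did not use also marked most of these barcodes as B cells. Ighm, the heavy chain of IgM, had a UMI in 49 of 51 control and 51 of 52 Maf LSEC-KO B barcodes, whereas it was found in 0.706% and 1.69% of endothelial barcodes. It was not exclusive to B barcodes, with a UMI in 5 of 24 and 16 of 63 T and NK cell barcodes. Igkc, the kappa light chain gene, was found in 49 of 51 and 50 of 52 B barcodes. In T and NK cell barcodes Igkc was found in 1 of 24 and 2 of 63. The endothelial barcodes, chosen by at least 5 UMIs of Pecam1, Cdh5, Ptprb and Egfl7 together, numbered 4533 and 4327. Of 7 T cell genes, 5 were at 0 in every LSEC-poor B barcode, and the list summed to 3 control UMIs and 1 Maf LSEC-KO UMI there. The NK cell list summed to 1 and 12 UMIs there, all 12 in 1 barcode. The rule itself limited Cd3e and Nkg7, although 0 of the barcodes it removed held 2 or more of their UMIs.

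The B barcodes fell into a low and a high range for LSEC RNA. A list of 22 LSEC genes took a median 4.27% of the UMIs of control endothelial barcodes and 2.08% of those of Maf LSEC-KO ones. Relative to that median, control B barcodes ranged from 0.643% to 127% and Maf LSEC-KO B barcodes from 1.64% to 120%. The barcodes at 25% or more were called LSEC-rich and the rest LSEC-poor. In the control library 23 of 51 were LSEC-rich (45.1%, 31.1 to 59.7%), and in the Maf LSEC-KO library 16 of 52 (30.8%, 18.7 to 45.1%). Of these LSEC-rich barcodes, 6 control and 1 Maf LSEC-KO had only 3 to 5 marker UMIs. Few barcodes lay near the limit: the control barcode nearest below it stood at 23.6% and the nearest above at 40.5%, and in the Maf LSEC-KO library these were 21.5% and 30.8%. Among T and NK cell barcodes 4 of 24 control and 10 of 63 Maf LSEC-KO ones reached the same limit, and among macrophage barcodes 74 of 195 and 220 of 518.

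**Figure D1:**
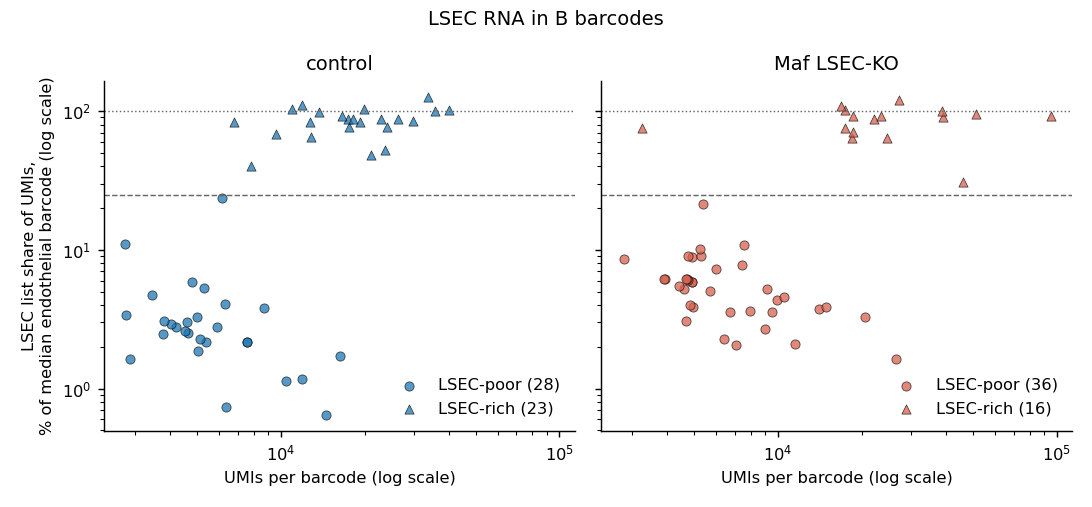
Each point is 1 B barcode, with its UMIs on a log x axis and its LSEC list share, as a percent of the median endothelial barcode of the same library, on a log y axis. Dashed lines mark 25% and dotted lines 100%. In both libraries the LSEC-rich barcodes (triangles) lie near the endothelial level and hold more UMIs than most LSEC-poor ones (circles).

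The LSEC-rich barcodes held more RNA. Their median was 18177 UMIs and 4998 genes in control and 22707 UMIs and 5262 genes in Maf LSEC-KO, against 5082 UMIs and 1735.5 genes and 5532.5 UMIs and 1970 genes in the LSEC-poor ones. The endothelial medians were 8632 and 14475 UMIs. The LSEC-rich barcodes also held Mcam, the CD146 gene used for the enrichment, with 40 control and 114 Maf LSEC-KO UMIs, whereas the LSEC-poor ones held 0 and 4. How many cells each barcode held was not tested, and no doublet caller was run. Per barcode, most of the B cell genes examined had lower medians in LSEC-rich than in LSEC-poor barcodes: the median Cd79a count was 9 against 14 in control and 11 against 15 in Maf LSEC-KO, and that of Ighm was 12 against 16.5 and 16.5 against 21. The gap was wider for Igkc, at 29 against 53.5 in control and 27 against 42.5 in Maf LSEC-KO, and for Cd74, at 38 against 66.5 and 54 against 75. Pax5 ran the other way, at 2 against 1 in both libraries, and so did Ighd in Maf LSEC-KO, at 4 against 2. As a share of all UMIs they were diluted: the B cell receptor and coreceptor list summed to 2663 CPM (UMIs per 1000000, leaving genes of mitochondria and of ribosomal proteins out of the total) in control LSEC-rich barcodes against 13573 CPM in LSEC-poor ones.

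The LSEC genes in LSEC-rich B barcodes stood near their level in the endothelial barcodes of the same library. In control, the 22 genes stood at 70.4% (Tfpi) to 105% (Plpp3) of their endothelial CPM, with a median of 86.6%, and in Maf LSEC-KO at 5.62% (Maf) to 109% (Kdr), with a median of 85.6%. In LSEC-poor barcodes the medians were 4.69% and 5.48%. Because the list's sum set the 2 classes, that gap in level is a description.

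Clec4g and Stab2 in B barcodes were mostly counts of the LSEC-rich ones. Clec4g gave 1053 UMIs in control B barcodes, of which 1045 lay in LSEC-rich ones, and 493 in Maf LSEC-KO B barcodes, of which 466 did. Its level was 2111 CPM (1986 to 2243) against 906 CPM (828 to 990), or -1.22 as a log2 ratio (-1.38 to -1.06). The endothelial barcodes gave 2960 and 1402 CPM and a log2 ratio of -1.08. Stab2 gave 520 UMIs in control B barcodes (511 in LSEC-rich ones) and 41 in Maf LSEC-KO (39 in LSEC-rich ones), a log2 ratio of -3.79 (-4.29 to -3.33) beside -3.30 in endothelial barcodes. The same direction was thus seen in both populations for both genes.

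Without the LSEC-rich barcodes, Clec4g pointed the other way. LSEC-poor barcodes held 8 control UMIs in 7 of 28 barcodes and 27 Maf LSEC-KO UMIs in 19 of 36, a log2 ratio of 1.08 with an interval that included 0 (-0.10 to 2.42). After each barcode was thinned to 3800 UMIs, 3 of 23 control barcodes (2.78 to 33.6%) and 10 of 35 Maf LSEC-KO ones (14.6 to 46.3%) held a Clec4g UMI, so a difference was not detectable at this depth. Stab2 kept its direction there, with 9 control and 2 Maf LSEC-KO UMIs and a log2 ratio of -2.85 (-6.10 to -0.58).

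Maf, the gene targeted in LSECs and a transcription factor of their identity, gave 1143 UMIs in control B barcodes and 7 in Maf LSEC-KO ones. In LSEC-rich barcodes the counts were 1124 and 2, and every one of the 23 control barcodes had a Maf UMI against 2 of 16. In LSEC-poor barcodes they were 19 and 5, in 9 of 28 and 4 of 36 barcodes. The endothelial level was 3401 CPM in control and 98.1 CPM in Maf LSEC-KO. The Maf LSEC-KO LSEC-rich barcodes stood below that residual level, at 5.51 CPM (0.668 to 19.9), as did Dnase1l3, a secreted DNase, at 16.5 CPM (6.07 to 36.0) beside 96.7 CPM.

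**Figure D2:**
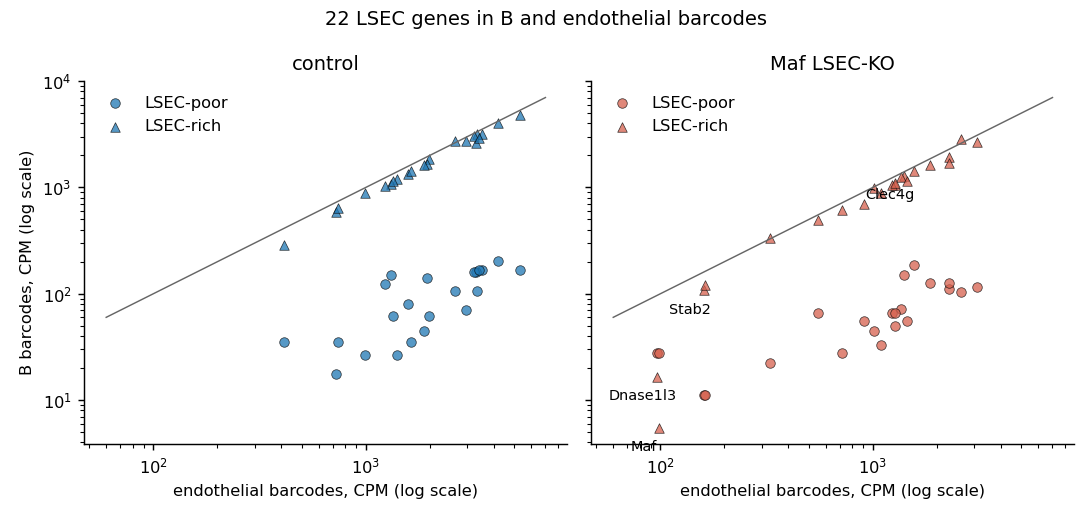
Each point is 1 of 22 LSEC genes, with its CPM in endothelial barcodes on a log x axis and in B barcodes of the same library on a log y axis. The line marks equal levels. Triangles (LSEC-rich) follow the line, with Maf and Dnase1l3 below it in Maf LSEC-KO, and circles (LSEC-poor) lie well under it.

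Across all B barcodes, 2426 genes had at least 100 CPM in a library with a UMI in at least 20% of that library's B barcodes. Of these, 82 were at least 2-fold higher in Maf LSEC-KO (3.38%) and 184 at least 2-fold lower (7.58%), and the median log2 ratio was 0.04. The LSEC list gave 12 of its 22 genes lower and none higher. The 10 lowest ratios included those of Maf, Col13a1, Dnase1l3, Aass, Slc39a8, Slco2a1, Tpbgl, C5ar2 and Tcn2, with log2 ratios from -7.48 to -4.63, and all 10 were also lower in endothelial barcodes (-5.24 to -3.46). The 10 highest were Fcor, Pcp4l1, Fcer2a, Ly6c1, Iglc1, Trappc5, Cd34, Cd63, Isg15 and Mest. Pcp4l1, at 0 control UMIs and 250 Maf LSEC-KO UMIs (at least 76.4-fold higher), had 243 of them in LSEC-rich barcodes, and Ly6c1 and Cd34, 2 genes of continuous endothelium, had 81 of 87 and 126 of 128 there. Fcer2a and Iglc1, by contrast, had 1240 of 1860 and 1908 of 2009 Maf LSEC-KO UMIs in LSEC-poor barcodes. The comparison was repeated in the LSEC-poor barcodes alone.

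In the LSEC-poor barcodes (28 control, 36 Maf LSEC-KO), 2107 genes passed the same minimum. Of these, 87 were at least 2-fold higher in Maf LSEC-KO (4.13%) and 177 at least 2-fold lower (8.4%), with a median log2 ratio of -0.09. The sums were small, at 113090 and 181040 UMIs, and only 14 genes had a counting interval wholly beyond 2-fold. Fcer2a, Iglc1, Trappc5, Wfdc17, Fcor, Marcks, Cd9 and Apoe were higher, and Kdm6b, Maf, Dnase1l3, Elmo1, Serpinb1a and Junb were lower. These 14 were singled out by their values. Some rested on few barcodes: 14 of 30 Wfdc17 UMIs and 577 of 815 Apoe UMIs in Maf LSEC-KO each came from 1 barcode. Of the 19 control Maf UMIs, 10 came from 1 barcode. Without the top barcode of each library the Apoe log2 ratio was 0.87 in place of 2.29. The barcode with those 577 Apoe UMIs also held 136 UMIs of Lyz2 and 77 of C1qa, both myeloid genes. It was kept among the LSEC-poor barcodes.

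Fcer2a stood apart. It encodes CD23, the low-affinity IgE receptor of follicular B cells. In the 28 control LSEC-poor barcodes it ran from 0 to 4 UMIs with a median of 1, and in the 36 Maf LSEC-KO ones from 0 to 66 with a median of 37.5. Of these 36, 34 lay above the highest control barcode. The level was 318 CPM (223 to 441) against 6849 CPM (6473 to 7241), which is 21.5-fold higher or 4.43 in log2 (3.95 to 4.95). The barcode with the most held 66 of 1240 UMIs, and after thinning to 3800 UMIs 12 of 23 control and 34 of 35 Maf LSEC-KO LSEC-poor barcodes held an Fcer2a UMI. LSEC-rich barcodes showed the same counts per barcode, with a median of 0 in control (0 to 6) and of 37 in Maf LSEC-KO (0 to 67). Across all B barcodes 49 of 52 Maf LSEC-KO ones exceeded the highest control one. Fcer2a was at 0 in T and NK cell barcodes of both libraries (24 and 63), counts that would allow at most 12.5% and 4.76% of them to hold a UMI. It gave 0 and 17 UMIs in macrophage barcodes, and 4 and 268 in endothelial barcodes, where 225 of 4327 Maf LSEC-KO barcodes (5.20%) held a UMI.

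**Figure D3:**
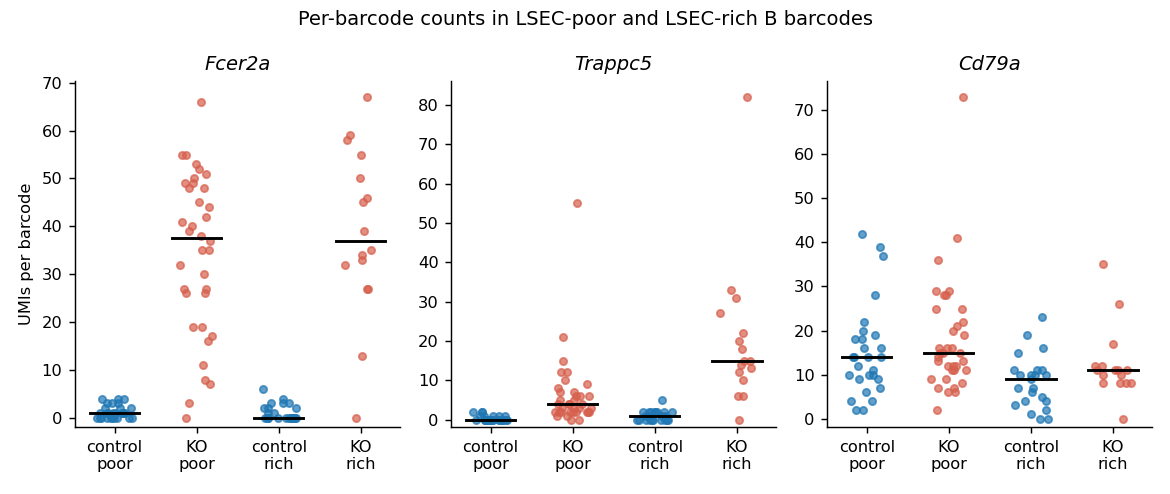
Each point is 1 B barcode, with its UMIs on the y axis, split by library (blue control, red Maf LSEC-KO, marked KO) and by LSEC class. Black bars are medians. Fcer2a medians are 1 and 0 in control against 37.5 and 37 in Maf LSEC-KO, whereas the ranges of Cd79a, a gene that chose the cells, overlap.

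Other genes of follicular B cells did not share that pattern. Ighd gave 973 CPM in control and 685 CPM in Maf LSEC-KO LSEC-poor barcodes (log2 ratio -0.51, -0.89 to -0.12), and Ccr7, a homing receptor, 195 and 160 CPM (-0.28, -1.13 to 0.59). Cxcr5, the follicle homing receptor, had 7 and 17 UMIs. Among Maf LSEC-KO barcodes, the LSEC-poor one with the most immunoglobulin RNA had no Fcer2a UMI.

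Fcer2a lies next to Clec4g, the gene whose name the Cre transgene bears, and so do Trappc5 and Fcor, 2 more of the 14 genes. In mm10 coordinates, Clec4g spans chr8:3707064-3720651 on the minus strand. Fcer2a spans chr8:3681737-3694175 (minus strand), Trappc5 chr8:3676299-3681255 (plus strand) and Fcor chr8:3671188-3672362 (minus strand). Trappc5 encodes a subunit of the TRAPP vesicle tethering complex and Fcor a corepressor of Foxo1. The neighbourhood was chosen for description after these values were seen. The 300 bases around the RefSeq starts of Fcer2a, Trappc5 and Fcor (build GRCm38.p6, which is mm10, each 5′ to 3′ on the gene's strand, from 250 bases before the start to 50 after it) are shown because, among the neighbours of Clec4g, these 3 had the highest ratios in LSEC-poor B barcodes. For Fcer2a the first of 3 listed starts is given. Capitals mark matches to CCCNNGGG, the core of the site of the B cell factor Ebf1, on either strand.
Fcer2a, chr8:3694125-3694424, minus strand: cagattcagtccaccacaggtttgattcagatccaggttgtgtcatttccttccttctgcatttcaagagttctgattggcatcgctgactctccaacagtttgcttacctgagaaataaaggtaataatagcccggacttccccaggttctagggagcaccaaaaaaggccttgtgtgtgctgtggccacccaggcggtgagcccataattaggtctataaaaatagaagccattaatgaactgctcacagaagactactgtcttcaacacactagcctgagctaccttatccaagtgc
Trappc5, chr8:3676227-3676526, plus strand: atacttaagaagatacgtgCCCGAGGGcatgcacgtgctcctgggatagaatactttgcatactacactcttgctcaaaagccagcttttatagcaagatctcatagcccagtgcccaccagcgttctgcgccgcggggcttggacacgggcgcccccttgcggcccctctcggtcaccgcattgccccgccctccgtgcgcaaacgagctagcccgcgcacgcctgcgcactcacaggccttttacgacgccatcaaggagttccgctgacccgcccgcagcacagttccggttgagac
Fcor, chr8:3672342-3672641, minus strand: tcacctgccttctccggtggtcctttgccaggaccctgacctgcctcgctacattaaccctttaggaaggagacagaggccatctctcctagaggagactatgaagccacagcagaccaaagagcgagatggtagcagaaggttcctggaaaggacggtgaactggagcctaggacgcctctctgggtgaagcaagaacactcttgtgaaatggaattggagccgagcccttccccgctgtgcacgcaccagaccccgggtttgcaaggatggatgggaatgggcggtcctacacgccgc
Trappc5 held 1 match and the other two none, and 13.4% of 27025 RefSeq promoters of this length held at least 1. The octamer ATTTGCAT, a motif of immunoglobulin promoters, was in none of the 3 and in 1.75% of all promoters. No match says only that these letters are not in the window.

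Trappc5 differed between the libraries in every population examined. LSEC-poor B barcodes held 11 control UMIs (0 to 2 per barcode) and 232 Maf LSEC-KO UMIs (0 to 55, median 4), a log2 ratio of 3.72 (2.85 to 4.74). Without the top barcode of each library the ratio was 3.75. The endothelial log2 ratio was 3.10, at 87.4 and 751 CPM, and T and NK cell barcodes held 15 and 243 UMIs and macrophage barcodes 94 and 2760. Fcor was at 0 in control LSEC-poor B barcodes and gave 39 UMIs in 15 of 36 Maf LSEC-KO ones (at least 8.12-fold higher), 16 of them in the barcode that also held the 55 Trappc5 UMIs. In LSEC-rich barcodes it gave 3 and 282 UMIs, and in endothelial barcodes 3.83 and 847 CPM.

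Within 200 kb of the Clec4g start the files held 18 genes, of which 9 had at least 10 UMIs in LSEC-poor B barcodes. Fcor, Trappc5, Fcer2a and Clec4g lie within 49.5 kb, where Gm39121 and Gm45231 had 0 control and 1 Maf LSEC-KO UMI each. Gm16553, which overlaps Clec4g on the other strand, had 0 control and 12 Maf LSEC-KO UMIs in 9 barcodes. Mcemp1, the next gene beyond Fcor, had 0 and 15 UMIs, all 15 in 1 barcode. Farther out, Stxbp2 had 8 and 4 UMIs, Pet100 12 and 27 and Xab2 4 and 8, with intervals of the log2 ratio that included 0. On the other side of Clec4g, Cd209a had 0 and 1. The transgene named for Clec4g was present in the Maf LSEC-KO mice only, how it was built is not given in the sources used here, and transgene and Maf deletion cannot be told apart in these 2 libraries.

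**Figure D4:**
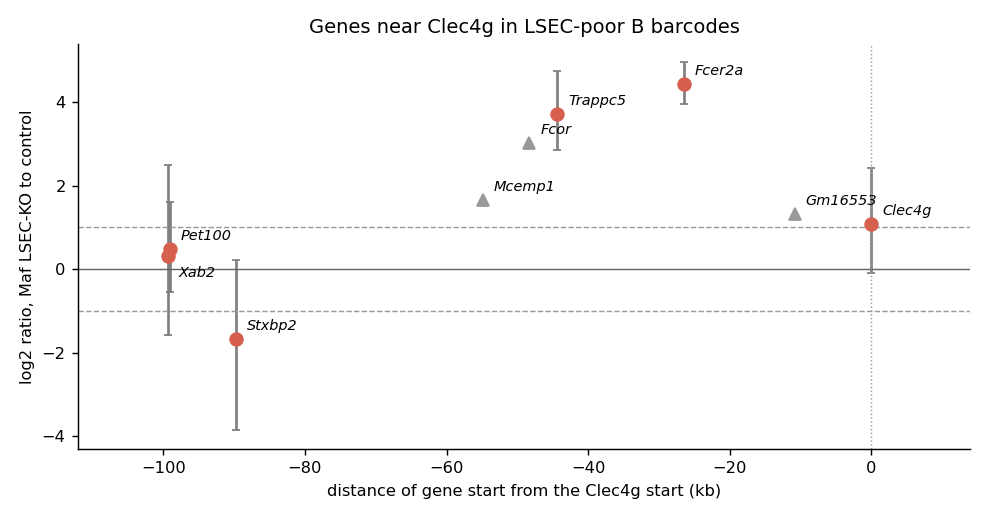
Points are the 9 genes near Clec4g with at least 10 UMIs in LSEC-poor B barcodes, with the distance of their start from the Clec4g start in kb on the x axis and the log2 ratio (Maf LSEC-KO over control) on the y axis. Bars are 95% counting intervals, grey triangles are lower bounds for genes at 0 in control (for Mcemp1 from 1 barcode), and dashed lines mark 2-fold. Fcer2a and Trappc5 stand highest, at 4.43 and 3.72.

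The immunoglobulin genes showed that most of these cells were unswitched. Ighm and Ighd were found together in 40 of 51 control and 43 of 52 Maf LSEC-KO B barcodes. UMIs of Igha, Ighg2b, Ighg2c or Ighg3 were found in 2 and 8 barcodes, with 5 or more of 1 isotype in 0 and 2. These 2 Maf LSEC-KO barcodes also held 542 and 42 UMIs of Ighm. Another Maf LSEC-KO barcode had no Ighm UMI but 3 of Igha, 4 of Ighg2b and 1 of Ighg2c. Ighg1 was at 0 in both libraries (0 of 51 and 0 of 52 barcodes). Ighm stood at 5482 and 8214 CPM in LSEC-poor barcodes, but 542 of 1487 Maf LSEC-KO UMIs came from 1 barcode, without which (and without the top control barcode) the log2 ratio was 0.17 (0.01 to 0.32) in place of 0.58.

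Kappa light chain RNA (Igkc) made up 73.8% of the light chain constant UMIs in control B barcodes (2078 of 2817, exact binomial interval 72.1 to 75.4%) and 54.6% in Maf LSEC-KO ones (3565 of 6533, 53.4 to 55.8%). UMIs within a barcode are not independent draws, and 1 Maf LSEC-KO barcode held 2792 of the 6533. Without the top barcode of each library the shares were 72.8% and 62.1%, and the median barcode stood at 82.4% and 73.0%. Among barcodes with at least 10 light chain UMIs, 30 of 46 control and 18 of 51 Maf LSEC-KO ones were at 80% kappa or more, 1 and 4 at 20% or less, and 15 and 29 in between. Iglc1, a lambda constant gene, was the main source of the difference. It had 66 UMIs in control and 1908 in Maf LSEC-KO LSEC-poor barcodes, 1479 of them in that 1 barcode, and the log2 ratio without the top barcodes was 2.92 (2.43 to 3.45) in place of 4.17. A second Maf LSEC-KO barcode held 242. Iglc1 UMIs lay in 13 of 28 and 27 of 36 LSEC-poor barcodes, and in 0 of 4533 and 31 of 4327 endothelial barcodes. Iglc2 and Iglc3 are near-identical copies, so the split between them is uncertain: they gave 290 and 530 and 238 and 215 UMIs.

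That barcode was the only one with the features of an antibody-secreting cell. It held 20464 UMIs, among them 542 of Ighm, 1240 of Igkc, 1479 of Iglc1, 57 of Jchain, the joining chain of secreted IgM and IgA, and 139 of Mzb1, a chaperone of immunoglobulin secretion. It held 10 UMIs of Xbp1, a factor of the secretory programme, but none of Sdc1, the plasma cell surface marker. In all other Maf LSEC-KO B barcodes Jchain was at 0, as it was in all 51 control ones. Its levels of both Igkc and Iglc1 were the highest of any B barcode.

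Genes of the B cell receptor stood close to the background of all genes. Of 15 B cell receptor and coreceptor genes, all passed the minimum in LSEC-poor barcodes, 3 of them used by the rule. None was 2-fold higher, beside 4.13% of all genes tested, and 1 was 2-fold lower, beside 8.4% of all genes, a background that also holds for the LSEC-poor counts of the lists that follow. The lower one was Fcrl1 (18 and 14 UMIs, log2 ratio -1.04, -2.16 to 0.05), and the median log2 ratio was -0.07 beside -0.09 over all genes. Cd37, a tetraspanin of B cells, gave 1547 and 1171 CPM (-0.40, -0.70 to -0.10), Fcmr, the IgM Fc receptor, 1088 and 1243 CPM (0.19, -0.13 to 0.52), and Cd81, a tetraspanin that endothelial cells also express, 336 and 392 CPM. Of 11 signalling genes past the minimum, Plcg2, the phospholipase of the receptor pathway, was lower (21 and 16 UMIs) and none higher. Their median log2 ratio was -0.31 beside -0.09 over all genes. The signalling list summed to 3970 and 3198 CPM (-0.31, -0.49 to -0.13). Bank1, a signalling scaffold, stood at 937 and 552 CPM (-0.76, -1.17 to -0.35) and Ralgps2 at 725 and 431 CPM (-0.75, -1.22 to -0.29). Both intervals lay below 0 and included a 2-fold difference.

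Of 12 transcription factor genes of B cells, none was 2-fold higher or lower. Their median log2 ratio was -0.20 beside -0.09 over all genes. The list summed to 8374 and 7087 CPM (-0.24, -0.36 to -0.12). Ebf1, which sets B cell identity, stood at 1866 and 1364 CPM (-0.45, -0.72 to -0.18), and Pax5, which maintains it, at 292 and 337 CPM (0.21, -0.43 to 0.86). Klf2, a factor of B cell quiescence and of endothelium under flow, stood at 1379 and 1304 CPM. MHC class II had 10 genes past the minimum and none 2-fold higher or lower. In LSEC-poor barcodes, 1 Maf LSEC-KO barcode held 1107 of the 5922 UMIs of this list. The median barcode held 129 in control and 133 in Maf LSEC-KO. Cd74, the invariant chain, gave 1992 and 3046 UMIs there, 17614 and 16825 CPM (-0.07, -0.15 to 0.02). The Maf LSEC-KO barcode with 577 Apoe UMIs held 469 of the 3046. H2-Aa, H2-Ab1 and H2-Eb1, the classical class II chains, had log2 ratios of -0.22, 0.00 and 0.10. Receptors of the BAFF and CD40 pathways, which carry survival and help signals, had 3 genes past the minimum and none 2-fold higher or lower: Tnfrsf13c, the BAFF receptor, stood at 433 and 282 CPM (-0.62, -1.22 to -0.03).

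Homing receptors had 1 of 9 genes lower and none higher, beside 8.4% and 4.13% over all genes. The lower one was Gpr183, an oxysterol receptor that guides B cells to follicle edges, with 52 and 33 UMIs (-1.33, -2.01 to -0.68). As a summed list, homing receptors gave 3015 CPM in control and 2116 CPM in Maf LSEC-KO LSEC-poor barcodes (log2 ratio -0.51, -0.73 to -0.30).

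Genes of other B cell subsets were counted, and no barcode was assigned to a subset from them. The precursor genes Rag1, Rag2, Igll1, Dntt and Il7r were at 0 in all 103 barcodes, counts that would allow at most 5.88% of control and 5.77% of Maf LSEC-KO B barcodes to hold a UMI. Cd5, a B-1 cell marker, had 0 and 1 UMIs. Bhlhe41, a factor of B-1 cells, had 7 UMIs in 3 of 28 control and 20 in 12 of 36 Maf LSEC-KO LSEC-poor barcodes (0.84, -0.46 to 2.32), and the B-1 list summed to 11 and 42 (1.25, 0.27 to 2.36). Cr2, the complement receptor that is high on marginal zone B cells, had 17 and 20 UMIs, and Cd9, another gene of that list, 3 and 32. Cd9 and Cd93, a transitional B cell gene, are also expressed by endothelium: Cd93 gave 202 and 230 UMIs in LSEC-rich barcodes but 1 and 3 in LSEC-poor ones. Vpreb3, a gene of immature B cells that endothelial barcodes nearly lacked, gave 23 and 41 UMIs in LSEC-poor barcodes.

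Immediate early genes differed in direction between the 2 classes. In LSEC-poor barcodes 5 of 12 genes were at least 2-fold lower in Maf LSEC-KO (Fos, Junb, Cd83, Myc and Zfp36) and none higher, beside 8.4% and 4.13% over all genes, and the summed list gave 7834 and 5988 CPM (log2 ratio -0.39, -0.52 to -0.26). Junb, an AP-1 factor, gave 167 and 88 UMIs (-1.60, -1.99 to -1.22), whereas Jun, another, gave 79 and 202 (0.68, 0.29 to 1.07). Of the 167 control Junb UMIs, the top barcode held 36. In LSEC-rich barcodes the summed list gave 2300 and 5219 CPM (1.18, 1.07 to 1.30), beside 1675 and 4545 CPM in endothelial barcodes (1.44). Over all B barcodes 1 of 10 genes past the minimum was higher, Jun, and none lower, beside 3.38% and 7.58% over all genes. These genes also respond to tissue digestion, and a part of handling in the difference was not tested.

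Proliferation genes were mostly counts of LSEC-rich barcodes, with 233 of 264 control and 718 of 798 Maf LSEC-KO UMIs there. Single barcodes held 143 of the 233 and 319 of the 718. Of all UMIs behind the CPM of B barcodes, LSEC-rich ones held 385637 of 498727 in control and 362886 of 543926 in Maf LSEC-KO. Heat shock genes gave 2030 and 3425 CPM in LSEC-rich barcodes. Interferon-stimulated genes gave 1932 and 3629 CPM there, beside 1981 and 3104 CPM in LSEC-poor ones. In LSEC-poor barcodes, 1 Maf LSEC-KO barcode held 257 of the 562 UMIs of the interferon list. The median barcode held 3.5 in control and 6.5 in Maf LSEC-KO. Of the heat shock genes, 1 of 6 was higher in LSEC-poor barcodes (Hspa1b, 9 and 29 UMIs) and none lower, beside 4.13% and 8.4% over all genes, and the list summed to 2962 and 3806 CPM (0.36, 0.17 to 0.55). Of 9 interferon-stimulated genes past the minimum over all B barcodes 3 were higher, Isg15, Ifit3 and Ifi27l2a, and none lower, beside 3.38% and 7.58% over all genes. Isg15, a ubiquitin-like protein, gave 17 and 171 UMIs in LSEC-rich but 2 and 10 in LSEC-poor barcodes, and Ifit1 gave 22 and 46 against 0 and 0. Ifi27l2a, by contrast, had 160 and 434 UMIs in LSEC-poor barcodes, of which 1 Maf LSEC-KO barcode held 233. Without the top barcodes its log2 ratio was 0.03 in place of 0.76. Mki67, a marker of cycling cells, gave 19 control UMIs in 2 B barcodes and 172 Maf LSEC-KO UMIs in 10. LSEC-rich barcodes held 16 and 163 of these, in 1 and 6 barcodes, and its level there was 41.5 and 449 CPM beside 41.5 and 284 CPM in endothelial barcodes. Of the 163, 1 barcode held 87 and another 57.

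**Figure D5:**
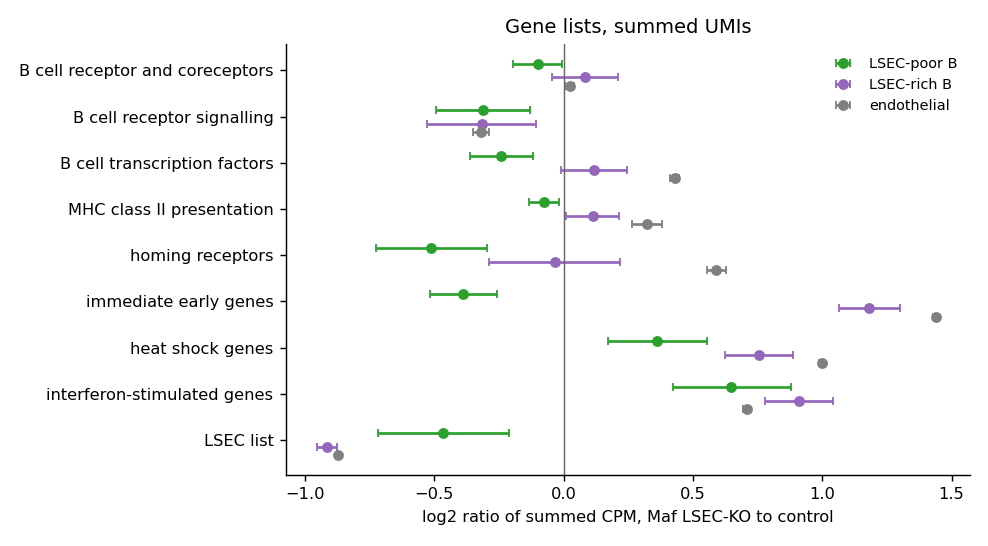
Points are log2 ratios of the summed CPM of 9 gene lists, Maf LSEC-KO to control, with 95% counting intervals, in LSEC-poor B (green), LSEC-rich B (purple) and endothelial barcodes (grey). For immediate early genes the LSEC-poor value is -0.39, whereas the LSEC-rich and endothelial values are 1.18 and 1.44. For interferon-stimulated genes, 1 LSEC-poor Maf LSEC-KO barcode held 257 of 562 UMIs. The B cell receptor list lies near 0 in all populations.

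Most of the myeloid and hepatocyte RNA in the Maf LSEC-KO LSEC-poor barcodes came from single barcodes, whereas their 282 UMIs of the LSEC list were spread over all 36. Kupffer cell genes summed to 4 control and 112 Maf LSEC-KO UMIs, 85 of the latter in 1 barcode, and neutrophil and monocyte genes to 6 and 162, of which 1 barcode held 143. The barcode with 136 UMIs of Lyz2 and 77 of C1qa, both myeloid genes, had 26438 UMIs, beside 6 marker UMIs and 32 of Fcer2a. The same barcode held the 577 UMIs of Apoe, 233 of Ifi27l2a, 55 of Trappc5, 16 of Fcor and 15 of Mcemp1 given above. Hepatocyte genes summed to 6 and 41 UMIs, 28 of the 41 in 1 barcode, and erythroid genes to 3 and 4. Xist, the RNA of the inactive X chromosome, was at 0 in all B barcodes of both libraries. Ddx3y, a Y chromosome gene, was found in B barcodes of both, with up to 7 UMIs in a control barcode and 8 in a Maf LSEC-KO one. Malat1, a nuclear RNA, took 55381 and 50845 CPM in LSEC-poor barcodes and 25136 and 26571 CPM in endothelial ones.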

How the data were processed

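Liver cells were profiled with 10x single-cell RNA-seq in 2 libraries, each a pool of 3 mice. The authors made the deposited counts, whole-number UMI counts per gene and barcode for 32285 genes, with Cell Ranger 6.0.2 on mm10. The submitters' processing notes name these and Seurat 5.0.1, and the study's subtraction of a mean empty-droplet profile is not in these counts. The libraries held 47681895 (control) and 89872764 UMIs, and no barcode had fewer than 500. Depth limits low genes, for which only large ratios can be seen.

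Groups came from the genotype labels. Barcodes with 1500 UMIs and 750 genes were kept and chosen by marker sums, and no doublet caller was run. Raw UMIs were summed per library and population and divided by UMIs outside the 104 mitochondrial and ribosomal protein genes. Ratios are given with exact conditional 95% intervals, shares with Clopper-Pearson intervals, and a sum of 0 was set to 3 counts for a bound. A gene was counted at 2-fold when it had 100 CPM and a UMI in 20% of barcodes in a library. Named genes were the markers, Clec4g, Stab2 and Maf, the genes of the selection rule, up to 6 genes with the most UMIs per list, state-defining genes such as Sdc1, Rag1 and Mki67, and the 10 highest and 10 lowest ratios over all B cells without V genes and unnamed gene models. Genes outside that rule (those singled out in LSEC-poor barcodes, the Clec4g neighbours and genes named for a call or a subset) were chosen after their values were seen. The members and the 33 gene lists were chosen with earlier results of these data known. Intervals and counting were tested on simulated data (numpy 2.4.6, scipy 1.17.1, pandas 2.3.3). Gene positions are from GENCODE on GRCm38, which matched 32158 gene identifiers, and promoters from RefSeq, where 12 of the 15 B cell receptor genes had an entry. Alternatives are given in the closing section. A few genes that the rule names are not reported here.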

Additional observations from a re-analysis of the deposited data

How the results depend on the processing

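With 1 library per group no library could be left out. No paired analysis was possible because each group holds 1 library and no result comes from a test. Small sums limit low genes. Thinning to 3800 UMIs moved the Stab2 log2 ratio over all B barcodes from -3.79 to -5.08. Leaving out LSEC-rich barcodes turned the Clec4g log2 ratio from -1.22 to 1.08 and moved that of Stab2 from -3.79 to -2.85. It set the share of B cells to 0.564% in control and 0.664% in Maf LSEC-KO (0.605% and 0.682% with the limit at 50%, chosen after seeing the data), and a limit of 0 UMIs of other lineages gave 0.609% in Maf LSEC-KO. The LSEC list share of B cell UMIs, 3.46% in control, was 3.14% with at least 5 marker UMIs, 0.215% without LSEC-rich barcodes, 2.75% over UMIs of all genes, 2.05% as a mean per barcode and 2.55% after thinning. In Maf LSEC-KO it was 1.61%, then 1.78% with no UMI of other lineages, 0.156%, 1.17%, 0.829% and 0.856% in the same order from the LSEC-rich step on. The 82 higher genes became 33 over UMIs of all genes, 127 after thinning, 216 at 50 CPM, 946 with no CPM minimum and 26 with the whole interval beyond 2-fold. The 184 lower genes became 288 after thinning, 345 at 50 CPM, 779 with no minimum and 95 with the whole interval, a setting chosen after seeing the data. Counting UMIs of all genes shifted log2 ratios by -0.14 in all B cells and by 0.02 in LSEC-poor ones. The kappa share was 82.4% and 73.0% as a median over barcodes, 71.7% and 52.3% without LSEC-rich barcodes, and 62.1% in Maf LSEC-KO without the top barcode, also chosen after seeing the data. After thinning, the share of control B barcodes with an Fcer2a UMI was 34.8% in place of 54.9%, and in Maf LSEC-KO that of Clec4g was 48.0% in place of 67.3% and that of Stab2 6.0% in place of 19.2%. Where a construction of the setting does not show it, the cause was not tested.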
